A study of Mus musculus with 14 samples.

Results

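The CTCF peaks and acetylated histone peaks around 10 genes that keep mouse embryonic stem cells pluripotent are described here: *Pou5f1*, *Sox2*, *Klf4*, *Klf2*, *Esrrb*, *Tfcp2l1*, *Zfp42*, *Prdm14*, *Tdgf1* and *Sall4*. Members were the peaks within 100 kb of any start site of these 10 genes in mm10, and a peak within 3 kb was counted as a promoter peak. Of 86652 CTCF sites in the whole series, 197 lay in these windows, 11 at promoters and 186 distal. A site is the merged interval of peaks that overlap by at least 1 bp over the 8 CTCF peak lists. Each site is named by its gene and its distance in bp from the nearest start site, with plus signs downstream and minus signs upstream along the gene. The windows also held 50 of the 38982 peaks of histone H3 acetylated at lysine 27 (H3K27ac) in wild-type cells and 87 of the 45318 peaks in mutant cells.

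The cells were E14Tg2A mouse embryonic stem cells carrying wild-type CTCF (WT) or CTCF in which CRISPR/Cas9 had replaced lysine 20 by arginine (K20R), a change that removes a site of acetylation. Stem cells at day 0 were kept on mouse embryonic fibroblast feeders with LIF and the 2i inhibitors. At day 4 they had formed embryoid bodies in hanging drops without LIF, aggregates in which stem cells leave the pluripotent state. CTCF had 2 libraries for each genotype and day, H3K27ac had 1 library per genotype at day 4 only, and 4 input libraries were not analysed here. How many clones each genotype comprised was not stated, so genotype and clone cannot be told apart, and the study's methods call the 2 CTCF libraries of a group biological replicates without saying, as the labels do not either, whether they came from separate cultures, so p-values measure the spread between these libraries. A mixed cell population gave each library, so fewer cells with a bound site and weaker binding per cell cannot be told apart.

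CTCF is a zinc finger protein that binds a long DNA motif, halts cohesin and so anchors chromatin loops, and it can set which enhancers reach a promoter. H3K27ac marks active promoters and enhancers. *Pou5f1* (Oct4, a POU factor) and *Sox2* (an HMG-box factor) bind DNA together at stem cell enhancers. *Klf4* and *Klf2* (Krüppel-like factors), *Esrrb* (an orphan nuclear receptor), *Tfcp2l1* (a CP2 family factor) and *Prdm14* (a PR-domain protein) uphold the naive state. *Zfp42* (Rex1) is a marker of naive cells, *Tdgf1* (Cripto) is a co-receptor of Nodal, and *Sall4* is a zinc finger factor of the early embryo.

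A CTCF motif stood within 100 bp of the median summit at 144 of the 197 sites (73.1%). The median summit is the median, over the lists that held a site, of the summit of its strongest peak in each list. The same search passed 76.3% of 8666 CTCF sites taken over the genome and 5.01% of windows shifted by 1 kb. The sequences below are from the RefSeq copy of GRCm38, the build that mm10 names, and the capitals mark the 19 bp that match the motif, written on the motif's own strand. The first set holds the motif matches at the promoter sites, where CTCF lies nearest to each start.
Pou5f1+2441, chr17:35508445-35508463, plus strand: acacaCACCAGAAGAGGGCATCAGatcct
Sox2-2511, chr3:34647885-34647903, plus strand: aagtcCACCAGCAGGGGGCGCAGCagcca
Klf4+2037, chr4:55530445-55530463, minus strand: gcctcAGCCGCCAGGTGGCGGGCTgatgg
Tfcp2l1-116, chr1:118627835-118627853, minus strand: agcacGGCCGGAGGGAGGCGCTGAgccgc
Zfp42+1090, chr8:43305835-43305853, plus strand: ttacaGGCCAAGTGAGGCCGCCGGcgcca
Tdgf1+1673, chr9:110944493-110944511, minus strand: atgcgGCCCAGAAGAGGGCACCAGatctc
Tdgf1-2229, chr9:110948464-110948482, plus strand: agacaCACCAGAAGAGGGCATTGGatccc
Sall4+1902, chr2:168765123-168765141, plus strand: tggccGGTCTCCAGAGGGCGCCCGcacgc

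The second set holds sites that were called at day 0 and dropped out at day 4 in one or both genotypes, the sites on which the comparison of days turns.
Sox2+37841, chr3:34688255-34688273, minus strand: agaaaCGCCAGGAGAGGGCATCAGatccc
Klf2+7712, chr8:72326777-72326795, minus strand: tcacaCACCTGCAAGGGGCGCCATtgagg
Esrrb-14302, chr12:86455814-86455832, plus strand: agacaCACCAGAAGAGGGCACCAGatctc
Zfp42-34936, chr8:43341917-43341935, plus strand: agaccCACCAGAAGAGGGCATTAGatctc
Prdm14+47468, chr1:13079701-13079719, minus strand: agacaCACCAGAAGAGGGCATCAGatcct
Pou5f1-9272, chr17:35496707-35496725, plus strand: agacaCACCAGAAGAGGGCACTAGatctc
Pou5f1-8343, chr17:35497651-35497669, plus strand: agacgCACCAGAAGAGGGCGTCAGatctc
Sall4-24532, chr2:168791773-168791791, minus strand: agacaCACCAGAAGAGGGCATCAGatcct

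The third set holds distal sites that were called in all 8 lists and whose fold enrichment differed between the genotypes at day 4.
Esrrb-18727, chr12:86402922-86402940, minus strand: ctgtgCGCCACCAGAGGGCGCGCTgggtc
Pou5f1+28536, chr17:35534558-35534576, minus strand: gctaaGAAAACCAGGGGGCAGCAGagagc
Sox2-49095, chr3:34601299-34601317, plus strand: acagaGGCCAGAAGAGGGCAGTGGttccc

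Many of these motif words share the run AGAAGAGGG. It stood in the motif match itself at 75 of the 144 sites with a match, and at Prdm14+47468 and Sall4-24532 the printed bases are the same letter for letter. The 19 bp of the match at Pou5f1+2441 stood unaltered at 14 of the 144 sites, in the windows of *Pou5f1*, *Sox2*, *Klf2*, *Tfcp2l1*, *Prdm14*, *Tdgf1* and *Sall4*. Of these 14 sites, Pou5f1+2441 alone was called in all 8 lists and 6 were called in 1 list, so the same motif letters stood at sites of very different occupancy. As background, this run belongs to the rodent B2 family of short interspersed repeats, which carries a CTCF motif through the genome. The run was searched on both strands within 100 bp of each median summit, after the sequences above had been seen, so the counts that follow are descriptions. It was present at 76 of 197 sites near the 10 genes (38.6%), at 22395 of all 86652 sites (25.8%), and in 2.1% of windows shifted by 1 kb. *Sall4* held the run at 20 of its 29 sites, *Pou5f1* at 15 of 46 and *Esrrb* at 9 of 23, while *Klf4* had it at 0 of 10.

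Sites with the run were weaker than sites without it in every group. Fold enrichment, the deposited ratio of reads at the summit to the local background, had a median over sites held by both day 4 WT lists of 11 at 33 sites with the run and 16.4 at 78 sites without it. In K20R at day 4 the medians were 13.9 at 29 sites and 28.3 at 58 sites. Over all sites of the genome they were 10.0 and 15.4 in WT and 13.3 and 22.9 in K20R at day 4, so this difference was not particular to the 10 genes. Reads of low mapping quality had been removed before peaks were called, and how far near-identical repeat copies alter these levels was not tested.

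The 10 windows held between 9 sites (*Tfcp2l1*) and 46 sites (*Pou5f1*). *Sall4* had 29, *Esrrb* 23, *Tdgf1* 19, *Klf2* 18, *Sox2* 17, *Prdm14* 15, *Zfp42* 11 and *Klf4* 10. Of the 197 sites, 82 lay in introns, 13 in exons and 102 between genes. In all 8 lists, 79 of the 197 sites were called, where 42.1% of all sites in the genome were. A motif stood at 68 of the 79 (86.1%). The strongest site of each gene, taken among the 79 only, had a mean fold enrichment over the 8 libraries from 21.1 at Tfcp2l1-98508 to 61.1 at Pou5f1+51022. The latter lies in an exon of *Cdsn*, and Tdgf1+88233 followed with 57.0. Another 42 sites were called in 1 list only, 33 of them in the first WT library of day 0. The genome's share of such sites was not computed. In the *Pou5f1* window 12 sites, 19.5 to 85.3 kb from the gene, lie at the H2-Q genes, MHC class I genes that are near-identical copies of each other, and their values are uncertain for that reason.

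The libraries as a whole bear on every count below. The 2 WT lists of day 0 held 77657 and 52698 peaks and the K20R lists 52076 and 51905, although the authors had equalised the reads of these libraries. At day 4 the WT lists held 61088 and 61436 peaks and the K20R lists 41360 and 47463. The lowest −log10 q in the 8 lists was between 1.31 and 1.36, and the summit pileup recovered from each peak's fold enrichment and −log10 p was at least 5 reads in each list, so a site was absent from a list when it fell under that limit. Of 981 peak values near the 10 genes, 981 gave a whole-number pileup within 0.01 of the deposited −log10 p. The local background recovered in the same way was nearly shared by the 2 libraries of a group, with a median absolute log2 ratio of 0.004 to 0.078 over the 79 sites called in all lists, against 0.362 to 0.71 between libraries of different groups. The spread between replicates of a fold enrichment therefore leaves out the error of the background that a group shares, and the pileup is given beside the fold enrichment where a result rests on it.

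Fewer CTCF peaks were called around these genes in K20R at day 4. The 2 WT libraries held 124 and 122 peaks in the 10 windows and the 2 K20R libraries 93 and 99, so the groups did not overlap. The whole K20R lists were shorter as well. The peaks in the windows made up 0.203% and 0.199% of the WT lists and 0.225% and 0.209% of the K20R lists, so their share was not lower in K20R. The mean difference was −27 peaks (SD of the difference 3.16, n = 2 per group). At day 0 the WT libraries held 184 and 120 peaks and the K20R libraries 124 and 122. The day 0 difference of −29 peaks (SD 32.0, n = 2 per group) was smaller than its spread and became 3 peaks without the first WT library. An exact permutation test of 2 libraries against 2 cannot give a p below 0.333.

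The difference at day 4 was spread over most windows. In 8 of the 10 genes both K20R libraries had fewer peaks than both WT libraries, all but *Klf4* and *Klf2*, where 61.1% of 21911 gene windows in the genome had the same pattern. The largest difference was at *Sall4*, 10 peaks fewer in the mean, followed by *Pou5f1* with 4 fewer. At day 0 the pattern held at 1 of the 10 genes, *Esrrb*, where 26.1% of windows had it.

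At day 4, 16 of 111 member sites called in both WT libraries were called in neither K20R library (14.4%), and these are called lost. Over the genome the share was 18.8%, so the loss near the pluripotency genes was not above the background. No site was gained in K20R at day 4 (0 of 87, with 0.536% over the genome). The lost sites were weak ones in WT, with a median fold enrichment of 6.08 and a median percentile of 17.9 within their list, against 18.4 and 66.5 for the 83 sites kept in all 4 libraries. A motif stood at 9 of the 16 lost and 72 of the 83 kept sites. With only the 41360 strongest peaks of every list, 0 of 74 sites were lost (5.63% over the genome) and 6 of 83 gained (7.23%, with 4.89% over the genome). Without the second K20R library the count rose to 24 and without the second WT library to 26, since 1 list then decides the call.

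*Sall4* held 6 of the 16 lost sites, the most of any gene, and all but 1 of its 29 sites had a motif. Of these, 3 between genes upstream of *Sall4* serve as examples: Sall4-10932 had fold enrichments of 7.98 and 7.97 in WT at day 4, Sall4-24532 had 6.09 and 5.69, and Sall4-76467 had 3.80 and 5.32. Both K20R libraries of day 4 lacked all of these peaks. Sall4-10932 and Sall4-24532 overlapped an H3K27ac peak in both genotypes. The *Sall4* promoter site, Sall4+1902, behaved differently and was called in all 8 lists, at 12.2 and 18.7 in WT and 16.2 and 33.2 in K20R at day 4. It rose with the day in K20R on fold enrichment (log2 difference 0.85 ± 0.25, SE, limma adjusted p = 0.0208) and missed the threshold on the pileup (0.78, adjusted p = 0.0516).

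*Pou5f1* held 4 of the lost sites. Pou5f1-8343 had 6.46 and 6.97 in WT at day 4, Pou5f1-21164 had 5.70 and 6.83, and Pou5f1-19516 had 5.13 and 4.55, all with no call in K20R. Pou5f1-21164 and Pou5f1-19516 are among the sites at the H2-Q genes, whose values are uncertain. The fourth, Pou5f1+26638, was called at 7.09 and 6.59 in WT at day 4 and nowhere else, had no motif, and overlapped an H3K27ac peak in both genotypes. Of the other lost sites, *Klf2* held Klf2-56969 and Klf2+59234, *Esrrb* held Esrrb+37902, *Tfcp2l1* held Tfcp2l1+80646 and *Prdm14* held Prdm14-72129.

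One promoter site was among the lost, Tdgf1-2229, in the upstream region of the Nodal co-receptor gene. It had 4.43 and 4.86 in WT at day 4, which are pileups of 7 and 8 reads, and no call in K20R. At day 0 it was called in the first WT library only. Of 10 promoter sites that both day 4 WT lists held, it was the only 1 lost, against 15 of 101 distal sites.

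At day 0, 8 of 118 sites were lost in K20R (6.78%, with 7.69% over the genome) and 1 of 108 was gained (0.426% over the genome). The gained site, Prdm14+55541, had fold enrichments of 3.81 and 3.52, at a mean percentile of 0.605 in its lists. Without the second WT library the count of lost sites rose to 51, because the long first list then stood alone. Without the first K20R library it was 14. Klf2+59234, in an exon of the neighbouring gene *Eps15l1*, was the only site lost at both days, from 5.18 and 5.15 at day 0 and from 5.13 and 4.55 at day 4.

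Between the days, the share of sites lost near these genes was above that of the genome in both genotypes when all libraries were used, a difference that was not tested. In WT, 13 of 118 sites called at day 0 were lost by day 4 (11%, with 5.75% over the genome), and 4 of 111 were gained (3.60%, with 3.81% over the genome). In K20R, 16 of 108 were lost (14.8%, with 9.1% over the genome) and 0 of 87 gained (1.18% over the genome). With lists of the same length the shares lost were 8.43% in WT and 7.69% in K20R, against 5.94% and 4.00% over the genome. Without the second WT library of day 0 the WT count rose to 59, and without a K20R library of day 0 the K20R count rose to 27 or 29. Without the second K20R library of day 4 the K20R share was 16.7% near the 10 genes and 17.6% over the genome, so the order of the 2 shares turned on that library. The 18 other pluripotency genes of a fixed list, among them *Nanog* and *Klf5*, had 15 of 175 sites lost in WT (8.57%) and 13 of 146 in K20R (8.90%). In the genotype comparison at day 4, 35 of their 178 sites were lost (19.7%).

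At 5 sites, each at a different gene, every day 0 library had a peak and no day 4 library did. They were among 100 member sites that all 4 day 0 libraries held (5%, with 1.48% over the genome), and of 83 sites that all day 4 libraries held, 0 had no day 0 peak (0.094% over the genome). Sox2+37841 had 13.7 and 4.93 in WT and 6.75 and 6.74 in K20R at day 0. Klf2+7712, between genes, had 7.65 and 4.52 in WT and 10.4 and 12.2 in K20R. Esrrb-14302, in an intron of *Esrrb*, had 9.78 and 5.73 in WT and 10.5 and 14.5 in K20R. Zfp42-34936 had 3.92 and 6.13 in WT and 8.13 and 8.12 in K20R, and Prdm14+47468 had 15.2 and 8.49 in WT and 9.91 and 11.5 in K20R. The median fold enrichment of the day 0 lists was 11.5 to 18. Only the 13.7 at Sox2+37841 and the 15.2 at Prdm14+47468 lay above the median of their list, 13.0 in the first WT library. The genotypes overlapped at these same sites, Sox2+37841 and Prdm14+47468, only. All 5 have a CTCF motif, and 3 of them hold the repeat run, as do 225 of 642 such sites in the genome (35.0%).

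The run was frequent among the sites that dropped out with the day. It stood at 7 of 13 sites lost in WT and at 10 of 16 lost in K20R, against 28 of 96 and 29 of 86 sites kept. Read the other way, 17.5% of member sites with the run were lost in WT (7 of 40) and 7.69% of those without it (6 of 78), while over all sites of the genome the shares were 9.11% and 4.86%. In K20R the shares were 24.4% (10 of 41) and 8.96% (6 of 67), and 14.7% and 7.54% over the genome. Sites with the run were also the weaker ones, as given above, and what part level has in these shares was not tested.

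Of the 100 sites in all 4 day 0 libraries, 5 left the lists in K20R but stayed in WT (5%, with 3.62% over the genome), and 0 did the reverse (0.223% over the genome). They were Pou5f1-21164 (at the H2-Q genes), Pou5f1-8343, Prdm14-72129, Sall4-24532 and Sall4-76467. At Prdm14-72129, in an intron of *Ncoa2*, fold enrichments were 11.5 and 7.06 in WT and 7.44 and 8.41 in K20R at day 0, then 7.87 and 8.54 in WT and no call in K20R at day 4. At Pou5f1-8343 they were 11.4 and 5.46 in WT and 8.15 and 11.2 in K20R at day 0. So K20R had these sites at day 0 at levels that overlapped WT at Prdm14-72129 and at Pou5f1-8343. Pou5f1-9272 left a different trace: 13.2 and 8.58 in WT and 15.3 and 18 in K20R at day 0, no call in WT at day 4, and 6.46 in the second K20R library.

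Sites gained in WT with the day were absent from both K20R libraries of day 4 at 3 of 4 positions, Pou5f1+26638, Tfcp2l1+80646 and Sall4-84358, as were 85.1% of the 2098 sites gained in WT over the genome. Tfcp2l1+80646 had 5.70 and 7.40 in WT at day 4, and Sall4-84358 had 4.88 and 3.66. None of the 3 has a motif. The fourth, Tdgf1+72289 in an exon of *Tmie*, had 5.70 and 5.69 in WT and 5.24 in the second K20R library.

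**Figure D1:**
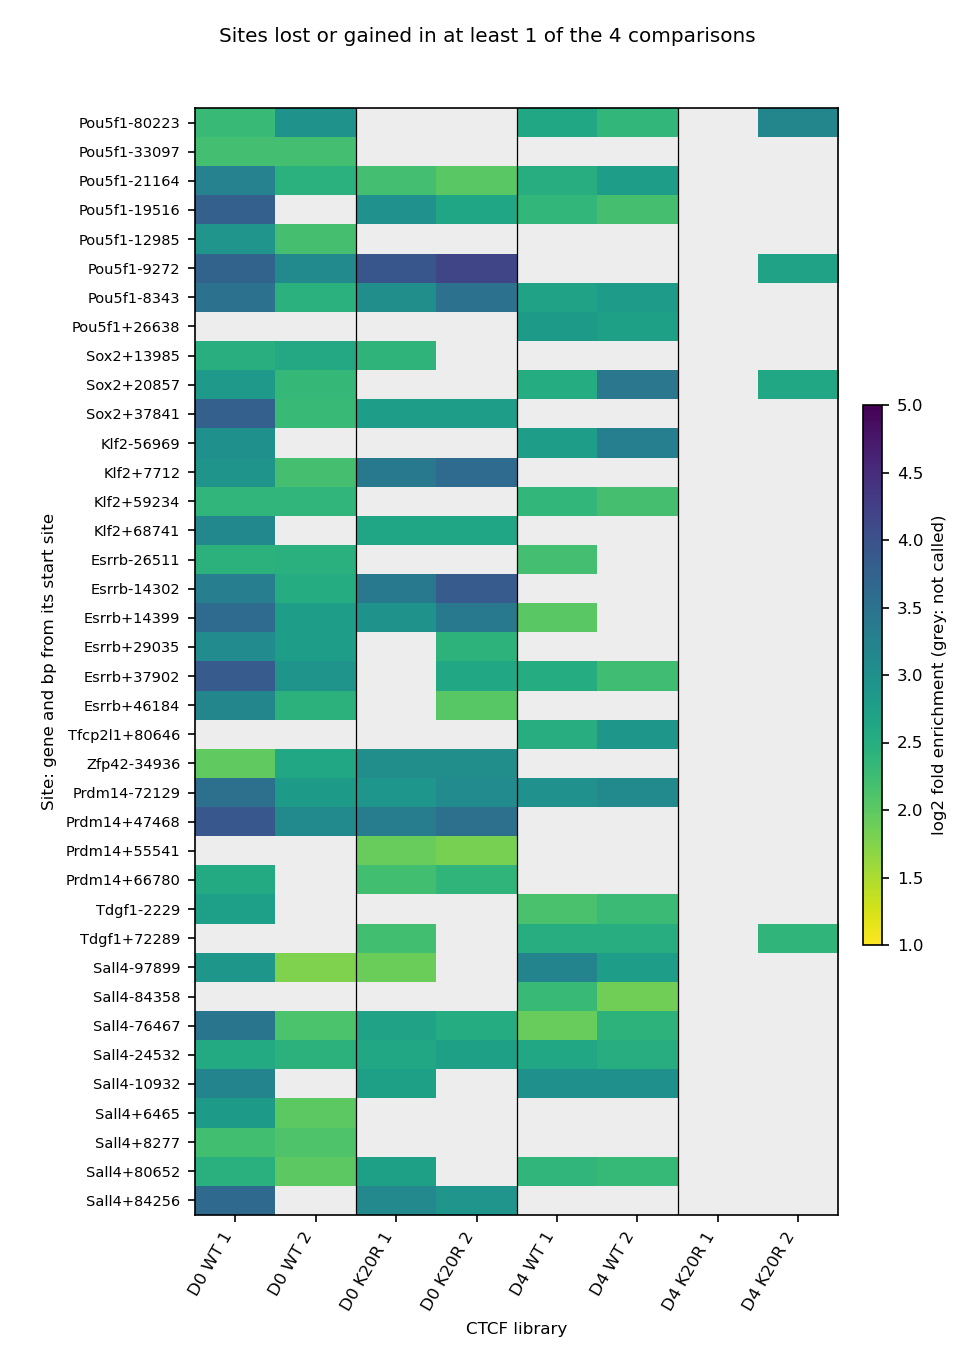
The 38 sites lost or gained in at least 1 of the 4 comparisons (rows) in the 8 CTCF libraries (columns), coloured by log2 fold enrichment, with grey where no peak was called. The first K20R library of day 4 has no colour in any row and the second has 4 coloured rows.

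*Esrrb*, a gene of 161 kb, held the most sites within its body of the 10 genes. Inside the gene lay 15 sites, 11 with a motif. The number called in the 2 libraries of a group was 15 and 10 in WT at day 0, 6 and 8 in K20R at day 0, 7 and 5 in WT at day 4, and 3 and 3 in K20R at day 4. The K20R libraries lay below the WT libraries at both days, as they did at 22.4% of the 768 gene bodies that held at least 10 sites, a minimum set after these counts were seen (73.6% at day 4 and 27.3% at day 0). Among those called in all lists, the intronic site Esrrb-18727 was the strongest of the gene, at 51.8 and 51 in WT and 44.4 and 44.5 in K20R at day 0, and at 35.3 and 33.0 in WT and 43.7 and 71.9 in K20R at day 4.

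Of the 11 promoter sites, 8 were called in all 8 lists (72.7%), and 2 lay within 1 kb of a start site. Of the 186 distal sites, 71 were called in all 8 lists. Over the genome 42.1% of all sites were, but the share among the genome's promoter sites was not computed, so the 72.7% is a description only. The number called in the 2 libraries of a group was 11 and 8 in WT and 8 and 8 in K20R at day 0, and 10 and 10 in WT and 9 and 8 in K20R at day 4. *Klf2*, *Esrrb* and *Prdm14* had none. Zfp42+1090, in an intron of *Zfp42*, ranged from 7.24 to 16.9 over the 8 libraries, and Tfcp2l1-116, which spans the start of *Tfcp2l1*, ranged from 5.84 to 12.2. Klf4+1036 ranged from 4.07 to 9.28, and its neighbour Klf4-1038 was called in the first WT library of day 0 alone, at 4.11. Zfp42+1090, Tfcp2l1-116 and Klf4+1036 passed the limma test described next in no comparison.

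The test was limma on log2 fold enrichment, centred on each library's median and fitted over the 36440 sites called in all 8 lists, with Benjamini-Hochberg adjustment over all of them. On simulated data of that size for the day 4 comparison of genotypes it found 28% of changes of 1 on the log2 scale and 83% of changes of 2. The simulated noise came from the spread between replicates alone. It left out the background error that a group shares, so it cannot give the rate of false calls in the real lists. The same test was run on the recovered pileup, which is not divided by the local background. It counts the same summit reads that enter the fold enrichment, background reads among them, so the 2 measures are not independent. Of the 79 sites near the pluripotency genes, 49 passed on fold enrichment in at least 1 of 5 comparisons. The genome's share for that count was not computed, so it is a description only.

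Pou5f1+2441, in an intron of *Pou5f1* downstream of its start, was lower in K20R at both days on both measures. Its fold enrichment was 22.2 and 6.51 in WT and 9.92 and 7.16 in K20R at day 0, and 13.7 and 15.4 in WT and 6.26 and 6.99 in K20R at day 4. The pileups at day 4 were 26 and 26 reads in WT and 10 and 11 in K20R. As deposited, the fold enrichments of the groups did not overlap at day 4 and did at day 0. Centred on library medians, the log2 values of day 0 were −0.203 and −1.221 in WT and −1.462 and −1.899 in K20R, without overlap. The log2 difference at day 4 was −1.27 ± 0.34 (SE, adjusted p = 0.00871) on fold enrichment and −1.42 on the pileup (adjusted p = 0.0108). At day 0 it was −0.97 ± 0.34 (adjusted p = 0.0394) and −1.27 (adjusted p = 0.0388). Its motif match holds the repeat run and differs from that of Prdm14+47468 only outside the capitals.

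Prdm14-7349, between genes upstream of *Prdm14*, was also lower in K20R at day 4. It had 21.3 and 20.8 in WT and 7.40 and 18.6 in K20R, with pileups of 41 and 40 against 12 and 31. Most of the difference lay in the first K20R library. The log2 difference was −0.98 ± 0.25 (SE, adjusted p = 0.00674), and −1.18 on the pileup (adjusted p = 0.00732). This site and Esrrb-16759 fall outside the rule for named sites and were picked after their values were seen. The 31 tested sites within 2 Mb of *Prdm14* but outside the windows had a median difference of −0.221 at day 4, against 0.028 over the genome. The part of this regional shift in the value at Prdm14-7349 was not tested.

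Tdgf1+1673 and Klf4+2037 differed on fold enrichment but not on the pileup. At Tdgf1+1673, in an intron of *Tdgf1*, day 0 fold enrichments were 24.9 and 19.1 in WT and 11.8 and 11.1 in K20R (log2 difference −1.38 ± 0.25, adjusted p = 0.000605), while the pileups were 48 and 37 against 45 and 42 reads (−0.33, adjusted p = 0.356). The recovered local background was 0.97 and 0.99 reads in WT and 2.89 and 2.89 in K20R. At Klf4+2037, in an exon of *Klf4*, the WT values rose from 6.81 and 6.75 at day 0 to 28.9 and 25.8 at day 4 (2.03 ± 0.29, adjusted p = 0.000162). Its pileups went from 36 and 36 to 56 and 50 reads (0.64, adjusted p = 0.215), and the background was 4.43 and 4.48 reads at day 0 and 0.974 and 0.973 at day 4.

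Sox2+555, in the only exon of *Sox2*, stood in both day 4 WT lists at 14.5 and 14.0 and in the first K20R library at 10.2. At day 0 it was called in the first WT library only, at 4.79 with a pileup of 40 reads over a background of 7.56 reads, against 29 reads in that K20R library. It has no motif and lies under an H3K27ac peak in both genotypes. The upstream promoter site Sox2-2511, in an intron of *Sox2ot*, was called throughout, at 17.3 to 33.2.

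**Figure D2:**
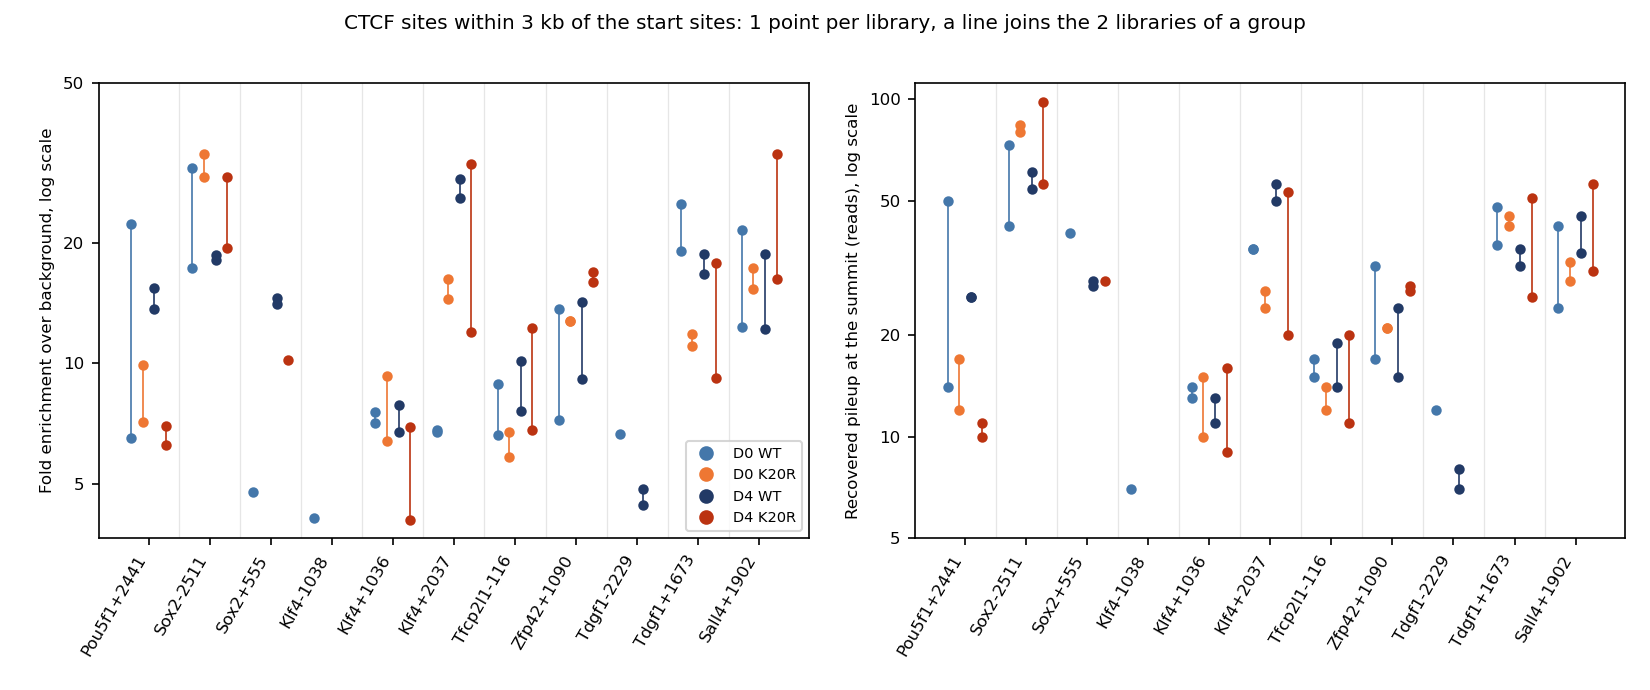
Fold enrichment (left) and recovered summit pileup in reads (right), both on log axes, of the 11 CTCF sites within 3 kb of a start site, with 1 point per library and a line joining the 2 libraries of a group. Pou5f1+2441 has both K20R points of day 4 below both WT points in both panels, while Tdgf1+1673 at day 0 and Klf4+2037 in WT separate on the left more than on the right.

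At day 4, 17 of the 79 sites were higher in K20R (17.8% over the genome) and 8 were lower (14.3% over the genome). Scaled instead by percentile within each list, 3 were higher and 14 lower, 11 of these 17 among the 25, and the median difference was −4.99 percentile points at the 79 sites and −8.79 over the genome. By percentile 8705 of the genome's 36440 sites passed in either direction, and their split by direction was not computed. Percentiles were not centred here or in the comparisons below, so a shift of all sites stays in each difference. The K20R lists of day 4 were also shorter than the WT lists. The balance of higher and lower calls at day 4 therefore depends on the scaling. On fold enrichment the median difference of the 79 sites was 0.18 on the log2 scale, with 0.028 over the genome. Both measures called 9 sites higher and 2 lower, where 7.43% and 7.74% of sites in the genome were so called. Without centring, which shifts the median of all sites by 0.163, 1 of the 79 sites passed at day 4. Without the second WT library of day 4 the count on fold enrichment was 12, and without the first it was 14.

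The largest difference was at Pou5f1+28536, in an exon of *Psors1c2*. It had 15.7 and 20.2 in WT and 48.5 and 71.2 in K20R at day 4, a log2 difference of 1.58 ± 0.19 (SE, adjusted p = 2.92e-05). The pileups of 76 and 98 reads in WT and 118 and 173 in K20R gave 0.62 (adjusted p = 0.0407), under the former value. At day 0 it was among the strong sites of the window in K20R, at 90.4 and 93.0, and had 55.8 and 35.2 in WT.

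Klf2-79366, upstream of *Klf2* between genes and nearer to the start of *Ap1m1* than to that of *Klf2*, was higher in K20R at both days. It had 27.6 and 20.6 in WT and 54.5 and 60.1 in K20R at day 0, and 21.7 and 24.5 in WT and 33.5 and 39.3 in K20R at day 4. The groups did not overlap at either day. The log2 difference was 0.81 ± 0.19 at day 0 (SE, adjusted p = 0.00431; 1.08 on the pileup, adjusted p = 0.00442) and 0.52 ± 0.19 at day 4 (adjusted p = 0.0439; 0.89 on the pileup, adjusted p = 0.00414). The 111 tested sites within 2 Mb of *Klf2* but outside the windows had median differences of 0.225 at day 0 and 0.212 at day 4. Over the genome the medians were −0.027 and 0.028. The part of this regional shift in the values at Klf2-79366 was not tested.

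*Esrrb* had 3 sites that were higher on both measures at day 4. Esrrb+88957, beyond the end of the gene, had 13.7 and 16.5 in WT and 21.6 and 47.2 in K20R (0.95 ± 0.20, adjusted p = 0.00139). Esrrb-18727 differed by 0.58 ± 0.22 (adjusted p = 0.0460). Esrrb-16759, with 14.7 and 19.8 in WT and 21.3 and 33.6 in K20R, differed by 0.52 ± 0.20 (adjusted p = 0.0491). In each of the 3 the second K20R library was the highest of the day.

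The remaining sites higher on both measures were Pou5f1-21758, Sox2-49095, Klf4+17625 and Zfp42-21865. Sox2-49095, in an intron of *Sox2ot*, had 13.1 and 10.2 in WT and 19.3 and 22.4 in K20R (0.71 ± 0.23, adjusted p = 0.0238). Zfp42-21865 had 15.2 and 12 in WT and 25.6 and 31.5 in K20R (0.94 ± 0.20, adjusted p = 0.00158). At both, the K20R values of day 4 as deposited lay above both WT values of that day and below both K20R values of day 0. Centred on library medians, as in the test, they still lay above WT, but the K20R values of the 2 days overlapped at both sites. Pou5f1-21758 differed by 0.95 ± 0.19 (adjusted p = 0.00125), and Klf4+17625, with 24.4 and 18.3 in WT and 35.5 and 80.5 in K20R, by 1.20 ± 0.25 (adjusted p = 0.00170). Pou5f1-21758 is among the sites at the H2-Q genes, whose values are uncertain.

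For 3 of the 25 sites past the threshold at day 4 the pileup had the opposite sign. The clearest case was Klf2-61443, lower in K20R by 1.29 ± 0.21 on the log2 scale of fold enrichment (adjusted p = 0.000258) but not on the pileup (0.06, adjusted p = 0.839). Its fold enrichments were 34.8 and 30.7 in WT and 11.6 and 18.5 in K20R, and its pileups 60 and 53 against 50 and 80 reads. The other 2 were Esrrb-63470 and Sall4+75119.

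**Figure D3:**
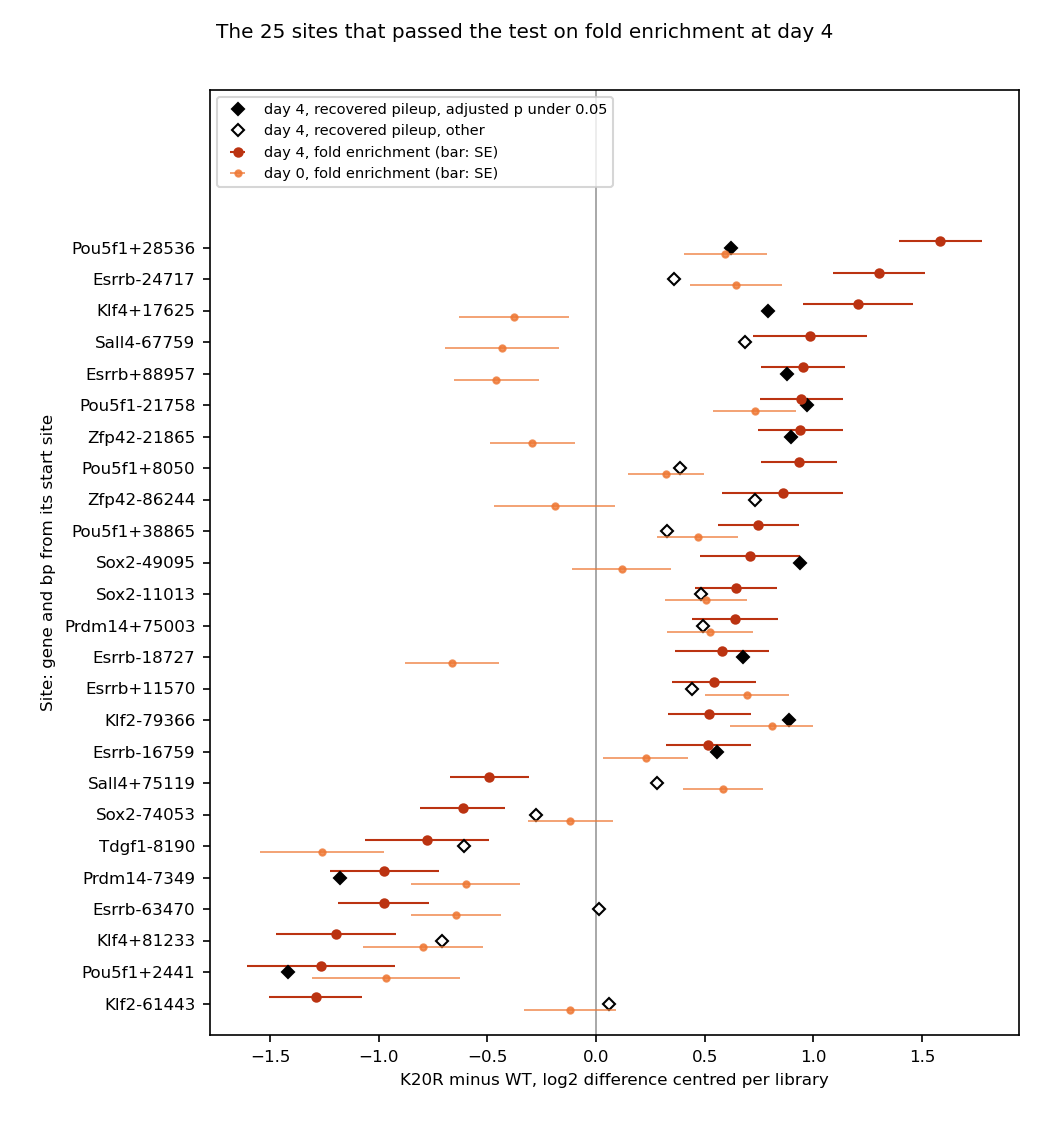
Log2 difference of K20R minus WT, centred per library, at the 25 sites near the 10 genes that passed the test on fold enrichment at day 4, with fold enrichment at day 4 in red and at day 0 in orange (bars, SE) and the recovered pileup at day 4 as diamonds. Filled diamonds mark the 11 sites that also passed on the pileup, and at Klf2-61443 and Esrrb-63470 the diamond stands near 0 while the red point lies near −1.

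At day 0, 13 of the 79 sites were higher in K20R (14.9% over the genome) and 12 lower (13.7% over the genome), with a median difference of 0.04. By percentile 4 were higher and 9 lower, where 5158 of the genome's 36440 sites passed in either direction. Both measures called 3 sites, Pou5f1+2441, Klf2-79366 and Zfp42-26724, where 4.15% of sites in the genome were called in either direction. Zfp42-26724, the strongest site of *Zfp42*, had 31.0 and 18.1 in WT and 60.6 and 66.8 in K20R (0.97 ± 0.17, adjusted p = 0.000559; 0.74 on the pileup, adjusted p = 0.0151). At day 4 its WT values were 31.9 and 32.4 and its K20R values 34.2 and 51.3, and it did not pass the test. Without either K20R library of day 0, the count of 25 was 10, and without centring, which shifts the median of all sites by 0.428, it was 5.

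From day 0 to day 4, 11 of the 79 sites rose (12.0% over the genome) and 14 fell (12.8% over the genome) in WT, while 10 rose (10.9% over the genome) and 6 fell (9.31% over the genome) in K20R. By percentile the counts were 7 up and 13 down in WT and 4 up and 7 down in K20R, and on the pileup 0 up and 6 down in WT and 0 up and 3 down in K20R. Of the genome's 36440 sites, 6640 in WT and 3839 in K20R passed by percentile, and 1310 and 1566 on the pileup. Both measures called 4 sites in WT, all lower at day 4 (2.85% of the genome's sites in either direction), and 2 in K20R, both lower (3.41%). The WT sites were Pou5f1+41641, Esrrb+88957, Sox2-49095 and Zfp42-21865, and the K20R sites were Pou5f1+41641 and Tfcp2l1-98508. In K20R the 16 calls fell to 3 without the first and to 2 without the second library of day 0, and to 1 without centring, which shifts the median of all sites by −0.317. In WT the 25 calls fell to 14 without the first and to 10 without the second library of day 4.

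Pou5f1+41641 thus fell with the day in both genotypes. Its fold enrichments were 30.4 and 21.3 in WT and 39.8 and 41.5 in K20R at day 0, and 9.69 and 6.83 in WT and 6.26 and 10.5 in K20R at day 4. The pileups fell from 53 and 37 reads to 16 and 11 in WT, and from 68 and 71 to 10 and 17 in K20R. Days did not overlap in either genotype. The log2 difference of the days was −1.63 ± 0.25 in WT (SE, adjusted p = 0.00024; pileup −1.66, adjusted p = 0.00331) and −1.99 ± 0.25 in K20R (adjusted p = 8.98e-05; pileup −2.06, adjusted p = 0.000776). It lies between genes, and its median summit has no motif within 100 bp.

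The other WT falls were smaller. Esrrb+88957 went from 44.9 and 29.2 to 13.7 and 16.5 (−1.25 ± 0.20, adjusted p = 0.000283; pileup −0.73, adjusted p = 0.0285). Sox2-49095 went from 26.9 and 19.6 to 13.1 and 10.2 (−0.97 ± 0.23, adjusted p = 0.00498; pileup −1.27, adjusted p = 0.0049). Zfp42-21865 went from 40.3 and 23.5 to 15.2 and 12 (−1.17 ± 0.20, adjusted p = 0.000438; pileup −1.04, adjusted p = 0.0104). All 3 lost strength in WT without leaving the lists. In K20R, Tfcp2l1-98508, in an intron of *Clasp1*, went from 31.1 and 30.1 to 7.66 and 19.3 (−0.99 ± 0.26, adjusted p = 0.01; pileup −0.96, adjusted p = 0.0396).

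The difference between genotypes itself changed with the day at 13 of the 79 sites on fold enrichment, 9 upward (7.07% over the genome) and 4 downward (5.79% over the genome). By percentile 5 moved upward and 10 downward, with 9 of these 15 among the 13, where 3291 of the genome's 36440 sites passed. On the pileup 0 of 79 passed by limma, 7 did at an unadjusted p under 0.05, and 0.0% of the genome's sites passed on both measures. A change of the genotype difference was therefore seen on the measure that is divided by the local background and was not detectable on the other.

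H3K27ac was compared at day 4 with 1 library per genotype, so the difference has no replicate check and no test. The windows of the 10 genes held 50 peaks over 85.7 kb in WT and 87 peaks over 130 kb in K20R, while the whole lists held 38982 and 45318 peaks. The number was higher in K20R at 7 genes (47.4% of windows in the genome) and lower at 1, *Prdm14* (23.8%). *Klf2* had 17 peaks in WT and 30 in K20R, *Pou5f1* 5 and 12, *Sall4* 10 and 16, *Tdgf1* 9 and 11, *Sox2* 2 and 6, and *Esrrb* 1 and 6. *Klf4* had 0 and 1, *Prdm14* 2 and 1, and *Tfcp2l1* and *Zfp42* had 2 in each genotype. The length that the peaks covered went the other way at 2 genes: at *Sall4* it was 30.7 kb in WT and 23.3 kb in K20R, where a single wide WT peak could overlap several K20R peaks, and at *Prdm14* it was 0.657 kb in WT and 1.40 kb in K20R.

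Most WT peaks had a counterpart. Of the 50 WT peaks, 9 overlapped no K20R peak (18%, with 36.9% over the genome), and of the 87 K20R peaks, 46 overlapped no WT peak (52.9%, with 46.9% over the genome). The added K20R peaks were mainly weak: with a −log10 q of at least 5, 10 WT and 13 K20R peaks were left near the 10 genes, and 10005 and 10014 in the whole lists. The strongest K20R peak with no WT counterpart was in an intron of *Als2cl*, 49019 bp downstream of the *Tdgf1* start, with a fold enrichment of 6.66 and a −log10 q of 10.7.

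At the promoters themselves H3K27ac was present in both genotypes at 6 of the 10 genes. Fold enrichment was 7.88 in WT and 6.07 in K20R at *Pou5f1*, 7.97 and 5.09 at *Tdgf1*, and 9.37 and 7.78 at *Sall4*. It was 4.94 in WT and 6.05 in K20R at *Sox2*, 4.26 and 5.65 at *Klf2*, and 3.27 and 4.98 at *Zfp42*. K20R also had a peak of 3.29 at the *Klf4* promoter, where the WT list had none, and a second *Pou5f1* peak of 3.18 that begins 2463 bp from the start and lies within the stretch that 1 wide promoter peak covered in WT. The *Pou5f1* promoter peaks covered 8.81 kb in WT and 7.09 kb in K20R. *Esrrb*, *Tfcp2l1* and *Prdm14* had no promoter peak in either list. So the *Pou5f1*, *Tdgf1* and *Sall4* promoters had the higher value in WT and the *Sox2*, *Klf2* and *Zfp42* promoters in K20R, with no replicate to set the error.

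**Figure D4:**
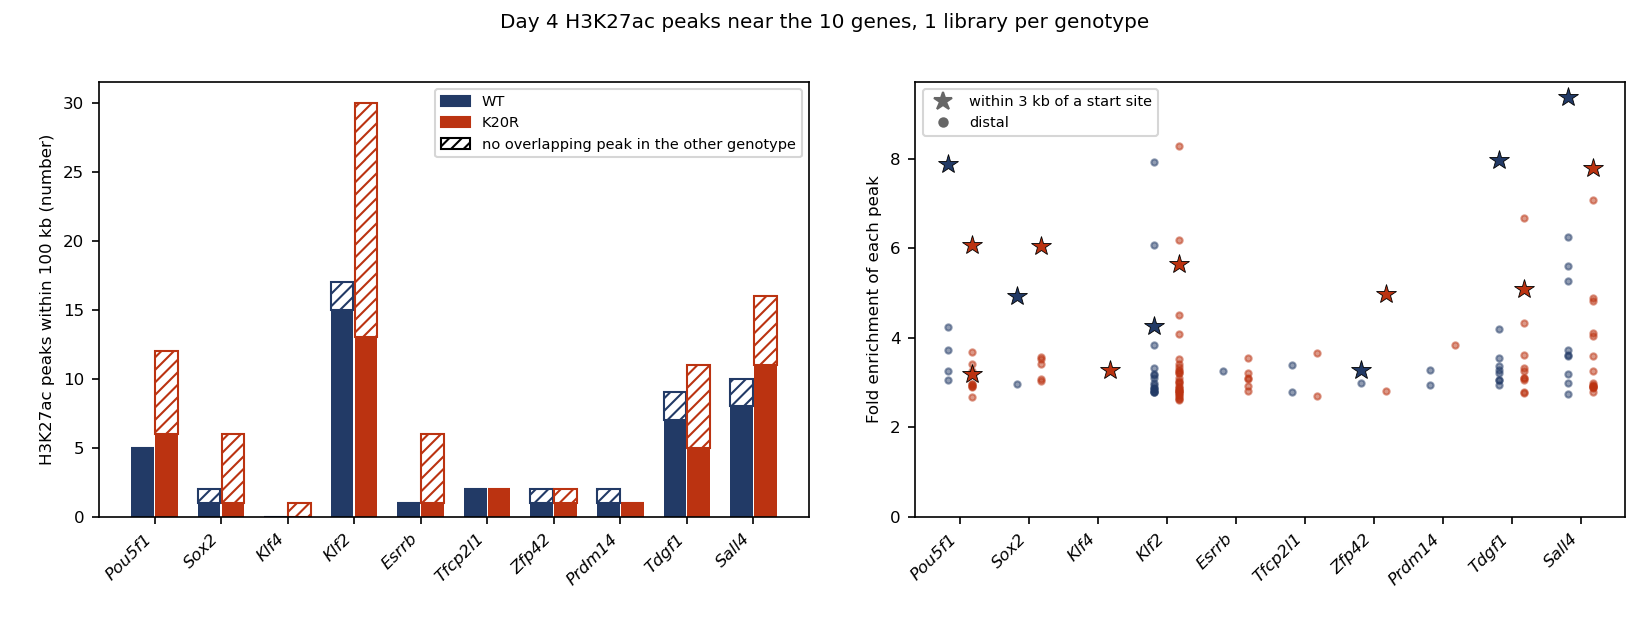
Day 4 H3K27ac near the 10 genes, 1 library per genotype: left, number of peaks within 100 kb, hatched where no peak of the other genotype overlaps; right, fold enrichment of each peak, with stars within 3 kb of a start site and dots farther away. Hatching makes up much of the K20R bars at *Klf2*, *Pou5f1* and *Esrrb*, and the stars of *Sox2*, *Klf2* and *Zfp42* stand higher in K20R.

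The surroundings moved with some of these counts. In the 2 Mb on each side of the *Klf2* window, the H3K27ac lists held 148 peaks in WT and 218 in K20R, a ratio of 1.47, where the ratio of the whole lists was 1.16. The recovered CTCF background there was 1.41 times as high in K20R as in WT at day 4, against 1.03 over all sites. At *Pou5f1* the flank ratio of H3K27ac peaks was 1.06, at *Esrrb* 1.17 and at *Sall4* 1.36. It was 1.11 at *Sox2*, 1.35 at *Klf4*, 1.0 at *Tfcp2l1*, 1.31 at *Zfp42* and 1.31 at *Tdgf1*. *Prdm14* had the lowest ratio, 0.81, with 47 peaks in WT and 38 in K20R. The recovered CTCF background around *Prdm14* was 0.757 times as high in K20R as in WT at day 4. The part of these regional differences in the counts at the genes was not tested.

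The day 4 lists were also read for the cells they came from, by a promoter H3K27ac peak at marker genes. Stem cell markers had one at 4 of 6 genes in WT and 5 of 6 in K20R, formative markers at 3 of 3 in both, and feeder fibroblast markers at 1 of 4 in both, *Thy1*. The added stem cell gene in K20R was *Klf4*, at a fold enrichment of 3.29. The share of all promoters with a peak was not computed, so these counts are descriptions. Markers of the primitive streak and mesoderm had one at 3 of 5 genes in WT (*T*, *Eomes* and *Fgf8*, at 3.55, 3.53 and 6.91) and at 0 of 5 in K20R. *Col1a1*, *Col1a2* and *Twist2* had none in either list. The levels moved as well: the strongest promoter peak at *Nanog* had a fold enrichment of 11.1 in WT and 3.08 in K20R, and those at the formative genes *Fgf5*, *Otx2* and *Dnmt3b* had 5.76, 4.38 and 5.03 in WT and 3.80, 3.53 and 3.52 in K20R. The part of this difference between the 2 embryoid body libraries in the H3K27ac and CTCF values was not tested.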

How the data were processed

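Members and gene lists were chosen with earlier results of these data known. The authors trimmed reads (Trim Galore), aligned them to mm10 (bowtie2), filtered them on mapping quality, duplicates and blacklisted regions, equalised the CTCF libraries and called peaks per library with MACS2, broad for H3K27ac. Which input was set against which library is not given in the sources used here. The deposited lists give fold enrichment, a ratio, with −log10 p and −log10 q per peak, and no read counts. Start sites and exons came from the annotation supplied with GRCm38.

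CTCF peaks were merged over 8 lists at 1 bp of overlap. Log2 fold enrichment, centred on library medians, was fitted with limma 3.58.1 (4 group means, intensity trend, Benjamini-Hochberg over 36440 sites). Pileup and background were solved from fold enrichment and −log10 p. Named sites were promoter sites, sites lost or gained, the 30 with the lowest p among sites past an adjusted p of 0.05, and each gene's strongest. The strongest was taken among sites called in all 8 lists. Named H3K27ac peaks were promoter peaks and the strongest unshared ones. The steps were tested on simulated data, where limma made 1 false call. That noise held no error shared by the libraries of a group, so the count does not carry over to the real lists. Alternatives were filters, list length, distances, overlap, scaling, measure, leaving out each library in turn and a replicate block.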

Additional observations from a re-analysis of the deposited data

Results flagged for a closer look

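At 13 sites near the 10 genes the genotype difference at day 4 differed from that at day 0 by limma's interaction term on log2 fold enrichment (adjusted p between 0.00296 and 0.0493). It moved upward by 1.58 on the log2 scale at Klf4+17625, 1.42 at Sall4-67759, 1.41 at Esrrb+88957, 1.24 at Esrrb-18727, 1.23 at Zfp42-21865, 1.22 at Pou5f1+72384, 1.14 at Sall4+37088, 0.99 at Pou5f1+28536 and 0.95 at Klf2+63583. The change was −1.35 at Klf4+2037, −1.17 at Klf2-61443, −1.07 at Sall4+75119 and −1.03 at Prdm14+76847. On the recovered pileup 0 of the 13 passed by limma (lowest adjusted p 0.76), and 3 of them had the opposite sign.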

How the results depend on the processing

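With lists of the same length, sites lost in K20R numbered 0 at day 4 and 1 at day 0, gained 6 and 4, lost with the day 7 in each genotype, and gained with the day 1 in each. With a −log10 q of at least 5, 2 sites were gained in K20R at day 4 and 0 at day 0, 4 were lost at day 0, the day 4 peak difference was −14.5, and 9 H3K27ac peaks were shared in each genotype. Within 50 kb, 8 sites were lost in K20R at day 4, 10 in K20R with the day, 0 gained at day 0 and 1 in WT with the day, the peak difference was −14.5 (−39 within 150 kb) and 24 H3K27ac peaks were shared. Within 1 kb, 2 promoter sites were left. Without centring, 1, 5, 0, 1 and 1 of the 79 sites passed for K20R minus WT at day 4 and day 0, their difference, and the days in WT and K20R. On the pileup the counts were 15, 3, 0, 6 and 3, and by percentile 13 at day 0. Of the genome's 36440 sites, 629, 3031, 0, 71 and 361 passed without centring and 7722, 1967, 0, 1310 and 1566 on the pileup.

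Leaving out 1 library gave 12 to 28, 10 to 30, 4 to 15, 10 to 26 and 2 to 20 in that order. Lost sites ranged from 20 to 26 in K20R at day 4, 9 to 51 at day 0, 14 to 59 with the day in WT and 18 to 29 in K20R, gained sites from 0 to 4, 1 to 8, 4 to 15 and 0 to 5. The peak difference ranged from −30 to −24 at day 4 and −61 to 3 at day 0.

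The sign turned under the pileup, which is not divided by the local background, at Klf2-61443 (0.059), Esrrb-63470 (0.013) and Sall4+75119 (0.28) for the genotypes at day 4, Pou5f1+72384 (0.19), Klf2+63583 (0.29) and Esrrb-18727 (0.17) at day 0, Klf4+2037 (0.070), Sall4+37088 (−0.14) and Klf2+63583 (−0.047) for their difference, and Pou5f1+28536 (0.075), Esrrb+38677 (−0.21) and Sox2-11013 (−0.11) for the days in WT. Of 88 results at named sites, 3 kept direction and call under all 14 alternatives refitted. Causes of the other changes were not tested.

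The replicate numbers did not pair the libraries (correlations of deviations −0.034 to 0.322, 1 of 6 over 0.1). With the replicate block 27, 27, 16, 28 and 17 sites passed and the peak differences stayed −27 and −29. Leaving out the H2-Q sites, chosen after seeing the data, left 14 sites lost in K20R at day 4 and 6 at day 0. The lists hold no reads outside peaks, so a site under the calling limit could not be told from an unbound one.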
